A study of Homo sapiens with 15 samples.

Results

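TFF1, TFF2, TFF3, GKN1, GKN2, MUC1, MUC5AC, MUC5B, MUC13 and MUC20, the trefoil peptide, gastrokine and mucin genes described here, were followed in A549 cells, a line of human lung adenocarcinoma epithelial cells. All probe sets annotated with one of these 10 symbols alone were taken, which gave 20 probe sets of the 54675 on the array, and 10 genes of 19775. The genes were chosen by family and selected on earlier measured differences of these arrays, among them the high TFF1 signal under the match polyamide and the higher MUC1 signal under dexamethasone. The values of these genes are therefore given as a description, with no p-value, and "passed the threshold" says only that a probe set had an adjusted p under 0.05 in the fit over all probe sets.

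Expression was measured in 5 groups of 3 arrays. The cells were treated with match polyamide for 48 hours and dexamethasone for 6 hours, with mismatch polyamide or with mifepristone over the same times, with dexamethasone alone for 6 hours, or were non-treated. Every group was the same cell line in medium with charcoal-treated serum, and no source used here gives a dose. Dexamethasone is a synthetic glucocorticoid, mifepristone antagonises the glucocorticoid receptor, and the match polyamide belongs to a class of small molecules that bind the minor groove of DNA and was made against the binding site of that receptor on DNA, the glucocorticoid response element (GRE). The mismatch polyamide is its control compound. No group had mifepristone or a polyamide without dexamethasone, and the labels name no vehicle group for the 48 hours. A compound's own effect and its effect on the response to dexamethasone thus cannot be told apart. Words such as rose, raised or fell below only compare the groups named. One line was used, and the labels do not say that replicate arrays came from separate cultures, so errors and p-values cover only how far these arrays scatter, and that scatter may be technical.

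Mucins are large glycoproteins that carry many O-linked sugar chains. Some, such as MUC5AC and MUC5B, are secreted and form the mucus gel of the airways, and others, such as MUC1, MUC13 and MUC20, are anchored in the cell membrane. Trefoil factors are small secreted peptides held by disulfide bonds that are released together with mucins and help an injured epithelium to close, and gastrokines are secreted proteins of the surface mucous cells of the stomach. In the stomach TFF1, GKN1, GKN2, TFF2 and MUC5AC are typical of these mucous cells or of the gland neck. In the RefSeq annotation (GRCh38.p14) TFF3, TFF2 and TFF1 are consecutive protein-coding genes on chromosome 21, GKN2 and GKN1 are neighbours on chromosome 2, and MUC5AC and MUC5B stand side by side on chromosome 11 next to MUC2.

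Promoter sequence was at hand for GKN1, GKN2, MUC1 and MUC13, 4 of the 10 genes, and not used here for TFF1, TFF2, TFF3, MUC5AC, MUC5B and MUC20. GKN2, MUC13 and MUC1 are printed because their signals differed most between the polyamide groups among the 4. Each is the RefSeq sequence (GRCh38.p14) of the 250 bases before the annotated start, read 5′ to 3′ on the gene's strand, which is the minus strand for all 3. Capitals mark matches to the motifs searched.
GKN2: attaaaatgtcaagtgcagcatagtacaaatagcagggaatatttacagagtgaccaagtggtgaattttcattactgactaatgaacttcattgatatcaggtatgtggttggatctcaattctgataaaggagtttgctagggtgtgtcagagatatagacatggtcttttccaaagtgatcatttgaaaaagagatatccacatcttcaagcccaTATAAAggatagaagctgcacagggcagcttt
MUC13: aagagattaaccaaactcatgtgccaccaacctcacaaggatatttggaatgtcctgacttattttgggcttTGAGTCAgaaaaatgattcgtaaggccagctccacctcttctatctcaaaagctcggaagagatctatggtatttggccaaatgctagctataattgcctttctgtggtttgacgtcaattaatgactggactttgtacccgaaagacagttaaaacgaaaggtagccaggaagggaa
MUC1: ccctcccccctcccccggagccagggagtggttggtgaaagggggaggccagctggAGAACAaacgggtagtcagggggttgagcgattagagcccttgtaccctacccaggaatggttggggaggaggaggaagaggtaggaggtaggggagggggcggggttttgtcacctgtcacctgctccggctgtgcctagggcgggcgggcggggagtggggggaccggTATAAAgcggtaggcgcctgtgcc
The GKN2 window lies at chr2:68952894-68953143, the MUC13 window at chr3:124934752-124935001 and the MUC1 window at chr1:155192916-155193165. The motifs below were searched on both strands, with N for any base. They were AGAACA, a hexamer of the glucocorticoid receptor's element, which 12.4% of 35116 promoter windows of this length hold, the full element, AGAACA and then TGTTCT after 3 bases, which contains that hexamer and was found in 1 window, or 0.00285%, the forkhead core TGTTTAC, in 2.98%, the AP-1 motif TGANTCA, in 6.57%, and the TATA box TATAAA, in 10.7%. The GKN2 window holds TATAAA from 32 to 27 bases before the start. The MUC13 window holds TGAGTCA from 178 to 172 bases before it, and the GKN1 window, at chr2:68974386-68974635 on the plus strand, holds TGAGTCA from 189 to 183 and from 50 to 44 bases before the start. The MUC1 window holds AGAACA from 194 to 189 bases and TATAAA from 24 to 19 bases before the start. A match is a match of letters, not a binding site.

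The deposited signals of the arrays were not on one scale, with 2% trimmed means between 87.22 and 147.1, so signals were quantile normalized before any comparison. The signals below are quantile-normalized signals on a linear scale, and differences are on the scale of log2(signal + 16), which understates the change of genes with low signals. Correlations between arrays of one group ran from 0.977 to 0.984. The epithelial markers KRT7, KRT8, KRT18, KRT19, EPCAM and CDH1 had median signals at or above the 86.57th percentile of the arrays. Of the lung lineage markers, NKX2-1 reached at most 7.82 and SFTPD at most 8.63, the filter removed both, and SFTPB, SFTPC and SCGB1A1 had medians between 8.59 and 17.3, at or below the 48.71st percentile. In bulk RNA a change in the number of cells that express a gene and a change in the RNA per cell cannot be told apart.

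Of the 20 probe sets, 14 passed the filter on low signals, and they covered 9 of the 10 genes. The probe set of TFF2 (214476_at) did not pass, at 2.07 to 10.9 over the 15 arrays. The other 5 left out were MUC5AC 214303_x_at (1.34 to 5.03), MUC5B 222268_x_at (1.10 to 12.3) and MUC20 226622_at (1.02 to 12.1), 230043_at (1.28 to 13.5) and 231941_s_at (0.394 to 10.8). The filter asked for at least 3 arrays above the 40th percentile, so a gene could pass through 1 group alone. GKN1 passed with 6 arrays, 3 of them match polyamide arrays, and MUC5B with 8, none of them a polyamide array. MUC20 (243774_at) passed with 3 arrays, 2 of them mismatch polyamide and 1 mifepristone. Comparisons with dexamethasone alone share the 3 dexamethasone arrays.

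**Figure D1:**
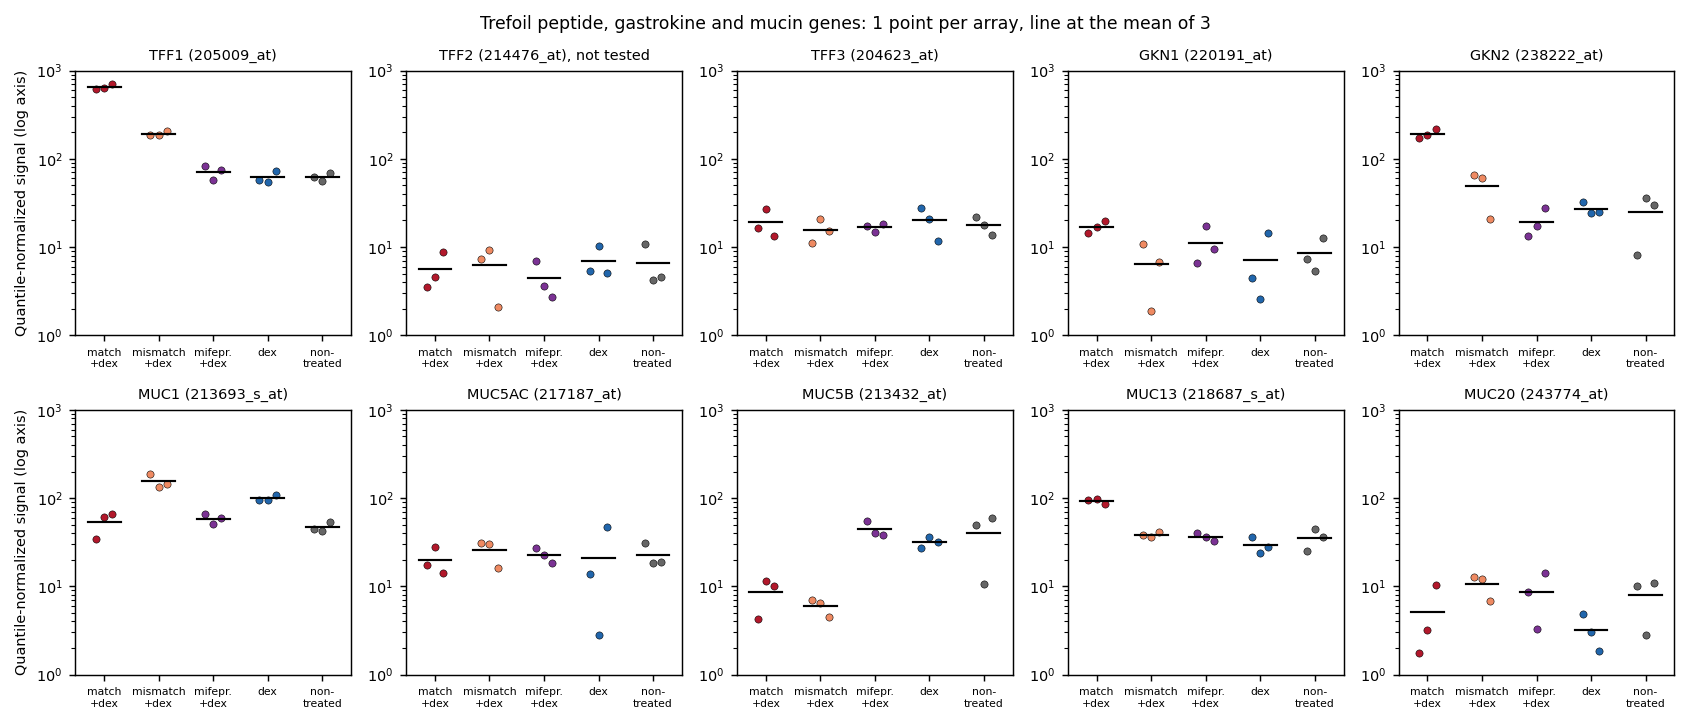
Quantile-normalized signal (log axis) of the 1 probe set that represents each of the 10 genes, with 1 point per array and a line at the mean of 3, for match polyamide plus dexamethasone, mismatch polyamide plus dexamethasone, mifepristone plus dexamethasone, dexamethasone and non-treated cells. TFF1 stands at 621 to 705 on the match polyamide arrays, against 54.6 to 73.5 on the dexamethasone arrays, and MUC5B is lower on all 6 polyamide arrays than on the dexamethasone arrays.

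Among the trefoil peptides, TFF1 had far higher signals in both polyamide groups and the other 2 genes showed no separation of groups. TFF1 (205009_at), which is secreted by gastric surface cells and by many carcinomas, had signals of 621, 643 and 705 with the match polyamide and 187, 186 and 208 with the mismatch polyamide. It had 82.1, 57.8 and 74.0 with mifepristone, 57.0, 54.6 and 73.5 with dexamethasone alone and 61.9, 55.8 and 68.4 in non-treated cells. The match arrays thus stood above all others, the mismatch arrays stood between them and the rest, and the other 3 groups overlapped.

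TFF1 averaged 656 ± 43.3 with the match polyamide and 61.7 ± 10.3 with dexamethasone alone (SD, n = 3 each), a 10.6-fold ratio of mean signals and a log2 difference of 3.12 (SE 0.12, 95% interval 2.86 to 3.38). This was the 4th largest difference upward among 16358 genes. With the mismatch polyamide TFF1 averaged 194 ± 12.2 (SD, n = 3), 3.14-fold the dexamethasone mean, and the log2 difference was 1.44 (95% interval 1.18 to 1.70), the 35th largest. The match polyamide exceeded the mismatch polyamide 3.39-fold, with a log2 difference of 1.68 (95% interval 1.42 to 1.94). TFF1 passed the threshold in these 3 comparisons, under each of the alternative settings tried. Since TFF1 was listed with its match polyamide signal on these arrays known, this describes the values and is no test. Dexamethasone and non-treated cells differed by -0.01 (95% interval -0.27 to 0.25), and mifepristone and dexamethasone alone by 0.17 (-0.09 to 0.43), neither of which passed.

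TFF3 (204623_at), a trefoil peptide of intestinal goblet cells and airway glands, averaged 19.0 ± 7.23 with the match polyamide, 15.7 ± 4.93 with the mismatch polyamide, 16.8 ± 1.93 with mifepristone, 20.1 ± 8.14 with dexamethasone and 17.9 ± 3.98 in non-treated cells (SD, n = 3 each). Its arrays overlapped in all 5 comparisons and none passed the threshold. The match polyamide minus dexamethasone difference was -0.04 on the log2 scale, with a 95% interval of -0.47 to 0.40. TFF2, the trefoil peptide of gastric gland neck cells, averaged 5.62 with the match polyamide and 6.89 with dexamethasone alone, below the filter. TFF1 was thus the one trefoil gene of the 3 that passed the threshold in any comparison.

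Of the gastrokines, GKN2 followed TFF1 in the match polyamide group, and GKN1 had low signals throughout. GKN2 (238222_at), a secreted partner of TFF1 in the stomach, had signals of 171, 188 and 221 with the match polyamide and 66.2, 60.3 and 21.0 with the mismatch polyamide. It had 13.3, 17.5 and 27.4 with mifepristone, 32.5, 24.6 and 24.8 with dexamethasone alone and 8.16, 36.1 and 30.3 in non-treated cells. All match arrays lay above every other array, while 1 mismatch array lay below the dexamethasone arrays and 2 above them.

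GKN2 averaged 193 ± 25.3 with the match polyamide and 27.3 ± 4.48 with dexamethasone alone (SD, n = 3 each), a ratio of 7.08 and a log2 difference of 2.27 (SE 0.28, 95% interval 1.69 to 2.85), the 15th largest upward of 16358 genes. With the mismatch polyamide it averaged 49.2 ± 24.6 (SD, n = 3), and its difference from dexamethasone alone, 0.51 (95% interval -0.07 to 1.09), did not pass. Without the third mismatch array that difference was 0.88 and passed. The match polyamide exceeded the mismatch polyamide by 1.76 (95% interval 1.18 to 2.34), the 4th largest difference upward in that comparison.

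GKN1 (220191_at), a gastric mucosal protein, had signals of 14.6, 16.8 and 19.5 with the match polyamide, 10.8, 1.90 and 6.70 with the mismatch polyamide, 6.57, 17.5 and 9.61 with mifepristone, 4.503, 2.60 and 14.5 with dexamethasone alone and 7.38, 5.42 and 12.7 in non-treated cells. All match arrays exceeded all dexamethasone arrays and all mismatch arrays, but the differences did not pass the threshold, at 0.54 (95% interval 0.05 to 1.02) against dexamethasone and 0.57 (0.08 to 1.06) against the mismatch polyamide. Non-overlap of this kind, upward, was found for 20.9% of all probe sets in the first of these comparisons and 14.3% in the second. Without the third dexamethasone array the difference of GKN1 from dexamethasone was 0.75 and passed. It also passed after scaling to trimmed means (0.62) or to the spike-in controls (0.71).

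Of the secreted gel-forming mucins, MUC5B was lower in both polyamide groups and MUC5AC passed in no comparison. MUC5B (213432_at), the main gel-forming mucin of healthy airways, had signals of 4.27, 11.5 and 10.1 with the match polyamide and 6.97, 6.41 and 4.46 with the mismatch polyamide. It had 54.5, 40.2 and 38.3 with mifepristone, 27.4, 36.3 and 31.9 with dexamethasone alone and 49.9, 10.6 and 60 in non-treated cells. Every polyamide array lay below every dexamethasone array, and 1 non-treated array lay among the polyamide arrays.

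MUC5B averaged 8.61 ± 3.82 with the match polyamide, 5.95 ± 1.32 with the mismatch polyamide and 31.9 ± 4.45 with dexamethasone alone (SD, n = 3 each). It passed the threshold in both comparisons, with log2 differences of -0.97 (95% interval -1.55 to -0.39) for the match polyamide and -1.12 (-1.70 to -0.54) for the mismatch polyamide. The match and mismatch polyamides differed by 0.15 (95% interval -0.43 to 0.73) and did not pass. MUC5AC, the other gel-forming airway mucin and the one of the gastric surface, had 3 tested probe sets and passed in no comparison. Its representing probe set (217187_at) averaged 19.9 ± 7.22 with the match polyamide, 25.9 ± 8.57 with the mismatch polyamide, 22.7 ± 4.34 with mifepristone, 21.2 ± 23.0 with dexamethasone and 22.8 ± 7.39 in non-treated cells (SD, n = 3 each). The dexamethasone arrays ran from 2.79 to 47.0, and without the third of them the mismatch polyamide minus dexamethasone difference of MUC5AC was 0.80 and passed.

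MUC1 was the member that passed the threshold in all 5 comparisons, and its direction differed between the polyamides. Its higher signal under dexamethasone was known when it was listed, so these calls are a description. MUC1 is a membrane mucin of many epithelia and carcinomas whose cytoplasmic tail takes part in signalling. Its representing probe set (213693_s_at) had signals of 34.2, 60.4 and 66.8 with the match polyamide and 189, 134 and 146 with the mismatch polyamide. It had 66.2, 50.6 and 59.3 with mifepristone, 94.5, 95.2 and 110 with dexamethasone alone and 45.2, 42.9 and 53.0 in non-treated cells. The order was therefore mismatch polyamide, then dexamethasone alone, then the other 3 groups, whose arrays overlapped, and the arrays of the first and second of these did not overlap.

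MUC1 averaged 99.8 ± 8.62 with dexamethasone and 47.0 ± 5.29 in non-treated cells (SD, n = 3 each), a 2.12-fold ratio and a log2 difference of 0.88 (SE 0.17, 95% interval 0.52 to 1.23). With mifepristone it averaged 58.7 ± 7.84 (SD, n = 3), a difference of -0.64 (95% interval -0.99 to -0.28) from dexamethasone alone, and with the match polyamide 53.8 ± 17.3 (SD, n = 3), a difference of -0.76 (-1.12 to -0.41). The mismatch polyamide averaged 156 ± 28.8 (SD, n = 3) and differed from dexamethasone alone by 0.56 (0.20 to 0.92). MUC1 was thus lower with mifepristone and with the match polyamide than with dexamethasone alone, and higher with the mismatch polyamide. The match and mismatch polyamides differed by -1.32 (95% interval -1.68 to -0.97), which placed MUC1 16311th of 16358 genes from the highest.

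The smaller differences of MUC1 depended on single arrays or on the processing. The difference of MUC1 between the mismatch polyamide and dexamethasone did not pass without dexamethasone array 1 (0.53), dexamethasone array 2 (0.53) or mismatch array 1 (0.43). That between mifepristone and dexamethasone did not pass without any one of the 3 mifepristone arrays, the 3 dexamethasone arrays, non-treated arrays 1 and 2 and mismatch array 3, with values from -0.71 to -0.56, nor with the signals as deposited (-0.25). The same difference did not pass with median centring (-0.51), spike-in scaling (-0.19), a pseudocount of 4, no filter or no variance trend. The 3 probe sets of MUC1 also differed. On 207847_s_at MUC1 averaged 49.4 with the match polyamide, 68.0 with the mismatch polyamide, 39.4 with mifepristone, 49.0 with dexamethasone and 39.4 in non-treated cells, and it passed in no comparison. Its difference between dexamethasone and non-treated cells was 0.22, and that between the match polyamide and dexamethasone 0.02. On 211695_x_at, a type of probe set that may share sequence with other genes, MUC1 passed only between match and mismatch, at -0.81, with 17.7 in match cells and 43.7 in mismatch cells. The direction between match and mismatch was the same on all 3 probe sets, and 2 of the 3 passed.

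**Figure D2:**
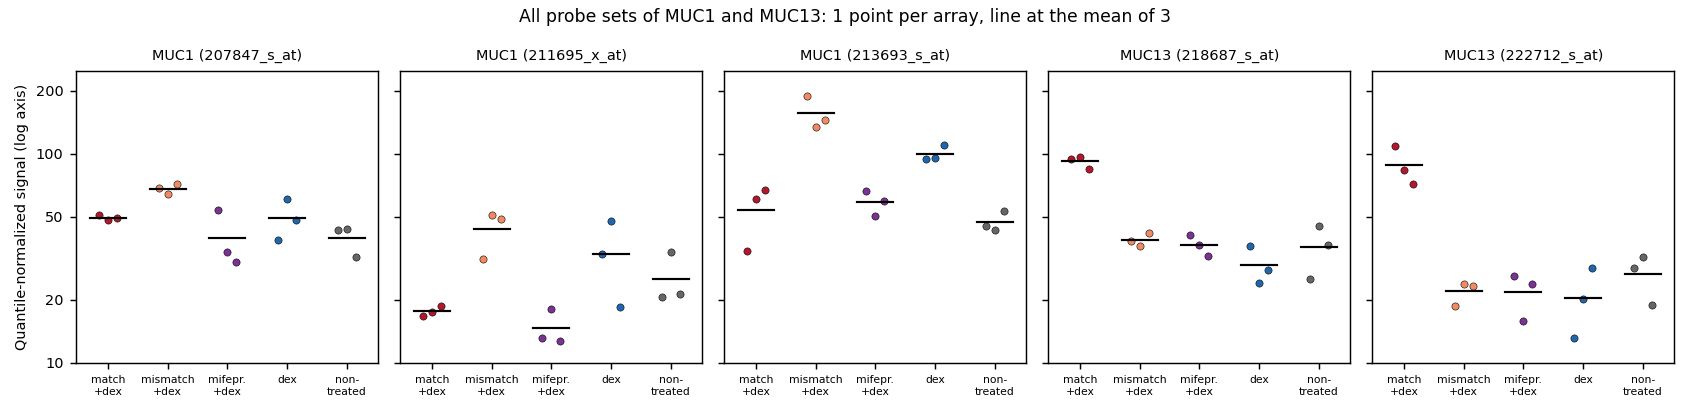
Quantile-normalized signal (log axis) of the 3 probe sets of MUC1 and the 2 of MUC13, with 1 point per array and a line at the mean of 3, in the 5 groups. The mismatch polyamide mean is the highest on each MUC1 probe set, and both MUC13 probe sets are highest with the match polyamide.

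MUC13, a membrane mucin of the gastrointestinal epithelium, was higher with the match polyamide on both of its probe sets. On 218687_s_at MUC13 had signals of 94.1, 96.8 and 84.9 with the match polyamide, 38.2, 36.2 and 41.5 with the mismatch polyamide, 40.7, 36.6 and 32.4 with mifepristone, 36.1, 23.9 and 27.9 with dexamethasone alone and 25.2, 45.1 and 36.4 in non-treated cells. On 222712_s_at it had 109, 83.2 and 71.4 with the match polyamide, 18.6, 23.8 and 23.3 with the mismatch polyamide, 25.9, 15.8 and 23.8 with mifepristone, 13.04, 20.04 and 28.3 with dexamethasone alone and 28.4, 32.1 and 18.9 in non-treated cells. On either probe set the match arrays lay above all other arrays, and the other 4 groups lay close to each other.

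The match polyamide minus dexamethasone difference of MUC13 was 1.26 (SE 0.16, 95% interval 0.92 to 1.60) on 218687_s_at, with 91.9 ± 6.23 against 29.3 ± 6.21 (SD, n = 3 each), and 1.52 (95% interval 1.11 to 1.92) on 222712_s_at. The match minus mismatch differences were 0.98 (0.65 to 1.32) and 1.44 (1.03 to 1.85). These 4 passed the threshold, and the mismatch minus dexamethasone differences, 0.28 (-0.06 to 0.62) and 0.07 (-0.33 to 0.48), did not. MUC20, a membrane mucin that was described with the MET receptor in kidney cells, had 4 probe sets, of which 243774_at was tested. It averaged 5.11 with the match polyamide, 10.6 with the mismatch polyamide, 8.67 with mifepristone, 3.23 with dexamethasone and 7.91 in non-treated cells and passed in no comparison. All its mismatch arrays exceeded all its dexamethasone arrays, an upward non-overlap that 19.2% of all probe sets showed in that comparison. A near copy of the gene, MUC20P1, is in the RefSeq annotation, so the MUC20 signals are uncertain.

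Counted over probe sets, the members called by the fit are set here beside all 39744 probe sets tested. Between dexamethasone and non-treated cells 1 of the 14 was higher, MUC1, and none was lower, where 2.56% of all probe sets were higher and 2.29% lower. Between mifepristone and dexamethasone none was higher and 1 lower, again MUC1, beside 1.61% and 1.94%. With the match polyamide 4 were higher than with dexamethasone alone, namely TFF1, GKN2 and both probe sets of MUC13, and 2 were lower, MUC1 and MUC5B, beside 15.9% and 14.9% of all probe sets. With the mismatch polyamide 2 were higher, TFF1 and MUC1, and 1 lower, MUC5B, beside 12% and 10.9%. Between match and mismatch 4 were higher, TFF1, GKN2 and the 2 of MUC13, and 2 lower, both of MUC1, beside 7.47% and 9.38%, a split that turned with spike-in scaling. Since the genes were listed with such results known, nothing is read from these counts. Arrays of the groups compared did not overlap, upward and downward, for 9.08% and 11.3% of all probe sets between dexamethasone and non-treated cells, 9.26% and 8.43% for mifepristone, 20.9% and 18.9% for the match polyamide and 19.2% and 16.6% for the mismatch polyamide against dexamethasone alone, and 14.3% and 15.6% between match and mismatch. The median log2 difference over the 14 was 0.11 for the match polyamide and 0.29 for the mismatch polyamide against dexamethasone alone, where the medians of all probe sets were 0.03 and 0.02.

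**Figure D3:**
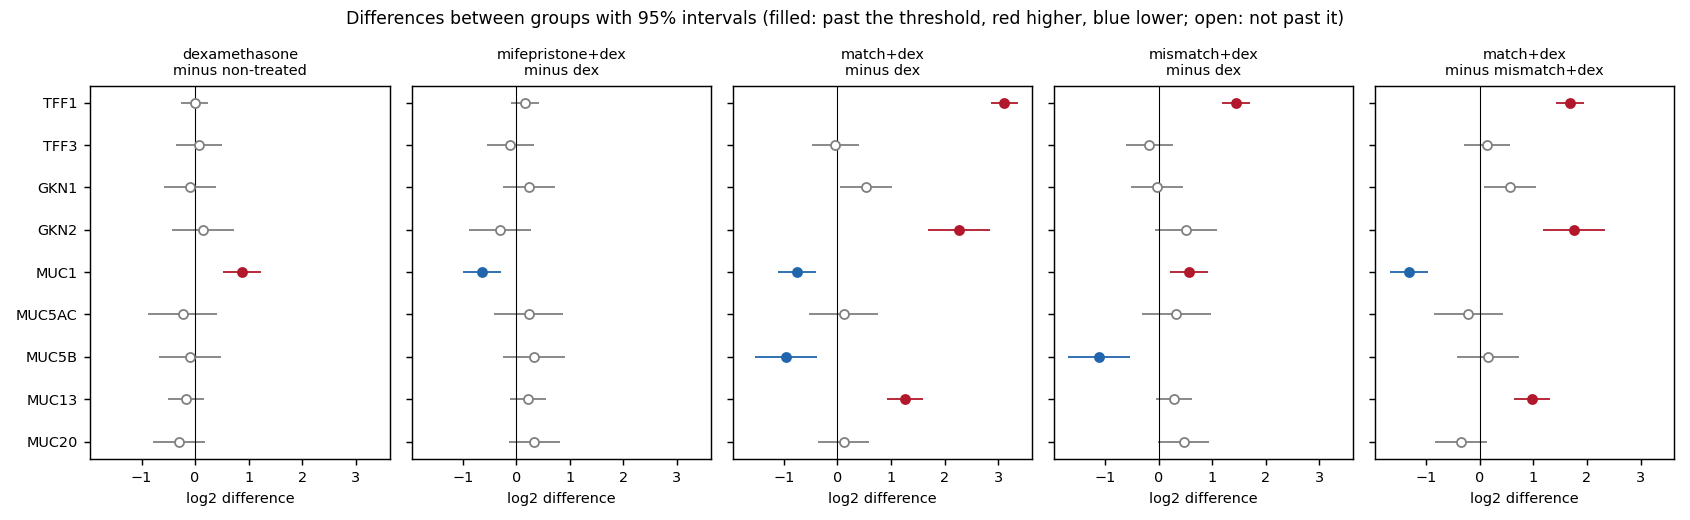
Log2 difference with its 95% interval for the 9 genes with a tested probe set in the 5 comparisons, drawn filled where the fit's threshold was passed (red higher, blue lower) and open where it was not. TFF1 reaches 3.12 for match polyamide against dexamethasone, and MUC1 lies on opposite sides of 0 for the 2 polyamides against dexamethasone.

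The match and mismatch polyamides form the single pair of related compounds, with matched times of 48 hours and doses that no source used here states, so the groups are set side by side and their doses may differ. Of the 9 genes tested, TFF1, GKN2 and MUC13 were higher and MUC1 was lower with the match polyamide, and MUC5B, MUC5AC, TFF3, GKN1 and MUC20 did not pass. TFF1 and MUC5B shared their direction against dexamethasone in both polyamide groups, while MUC1 had opposite directions. For TFF3 the interval of the match minus mismatch difference ran from -0.30 to 0.57, and for MUC5AC from -0.86 to 0.42.

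Markers of other cell types were read beside these differences. The 6 epithelial markers summed to 17468 to 19986 on the match arrays, 21903 to 22386 on the mismatch arrays, 19805 to 20760 on the mifepristone arrays, 23636 to 24203 on the dexamethasone arrays and 20764 to 21590 on the non-treated arrays. The 5 fibroblast markers summed to 273 to 322 on match arrays, 190 to 222 on mismatch arrays, 158 to 213 on mifepristone arrays, 126 to 183 on dexamethasone arrays and 159 to 197 on non-treated arrays, mostly COL1A1, while COL1A2, COL3A1, DCN and LUM reached at most 31.7. The 4 leukocyte markers with a probe set summed to 33.8 to 61.9 on match arrays and 46.1 to 50 on dexamethasone arrays, and PTPRC reached at most 13.7. The part of the lower epithelial sum and of the higher COL1A1 signal in the results of the match polyamide was not tested. Of the 6 gastric foveolar markers 5 are members themselves, and the remaining one, CLDN18, ran from 9.02 to 23.0 over all arrays.

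Mucins outside the list of members were followed beside them. This list and those below were chosen with earlier results of these arrays known. Genes named from them include those with the smallest adjusted p, so their adjusted p-values are descriptions and no tests. Of 14 further mucin genes, 13 had a probe set and 9 were tested, and their median log2 difference was 0.42 for the match polyamide and 0.22 for the mismatch polyamide against dexamethasone alone, beside 0.05 and 0.07 over all genes. MUC2, the gel-forming mucin of the intestine and the chromosomal neighbour of MUC5AC, had signals of 48.1, 46.8 and 34.2 with the match polyamide, 33.5, 19.99 and 16.9 with the mismatch polyamide and 5.50, 5.67 and 5.62 with dexamethasone alone. MUC2 rose with the match polyamide, with a log2 difference of 1.44 (SE 0.22, adjusted p = 3.34e-05), and with the mismatch polyamide, at 0.85 (adjusted p = 0.00815), although without mismatch array 1 the value for the mismatch polyamide was 0.67 and did not pass. The membrane mucin MUC12 also rose with the mismatch polyamide, by 0.83 (adjusted p = 0.0108). Without mismatch array 3 the value was 0.74 and did not pass, and a stricter filter left MUC12 out. Per gene, 21.5% of all 16358 genes were higher and 17.4% lower with the match polyamide, and 17.9% and 11.8% with the mismatch polyamide. MUC2 had 5.596 on average with dexamethasone and 22.0 in non-treated cells (log2 difference -0.78, adjusted p = 0.0477), and OVGP1, an oviduct mucin, 18.5 with the match polyamide and 35.4 with dexamethasone (log2 difference -0.68, adjusted p = 0.046). This call on MUC2 was lost in 18 of 26 alternatives, with values over all 26 from -1.37 to -0.30, and among them without any one non-treated or dexamethasone array, mifepristone array 3, match arrays 1 and 2 or mismatch array 2. The call on OVGP1, whose arrays overlapped, was lost in 21 of 26, with values from -1.10 to -0.29, and among them without any one array except dexamethasone array 1 and match array 1. No further mucin passed between mifepristone and dexamethasone, where 2.53% of all genes were higher and 2.76% lower. None passed between match and mismatch, where 9.43% of all genes were higher and 13.5% lower. Between dexamethasone and non-treated cells, where MUC2 was called, 3.2% of all genes were higher and 3.6% lower.

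Genes of mucin-type O-glycosylation, which build the sugar chains that mucins carry, included GalNAc-transferases that fell in both polyamide groups and others that rose with the mismatch polyamide. Of 22 genes 21 had a probe set and 20 were tested. With the match polyamide 1 rose and 9 fell against dexamethasone alone, where 21.5% of all genes were higher and 17.4% lower, with a list median of -0.25 beside 0.05 over all genes. With the mismatch polyamide 3 rose and 7 fell, where 17.9% were higher and 11.8% lower, with a median of 0.05 beside 0.07. With the signals as deposited 3 rose and 3 fell with the mismatch polyamide. GALNT10, one of the GalNAc-transferases that add the first sugar, had signals of 106, 114 and 139 with the match polyamide, 180, 184 and 180 with the mismatch polyamide and 531, 488 and 588 with dexamethasone alone. GALNT10 fell by 2.03 with the match polyamide (adjusted p = 4.6e-12) and by 1.48 with the mismatch polyamide (adjusted p = 1.53e-09), and its 3 probe sets fell in both. The GalNAc-transferase GALNT1 fell by 1.49 (adjusted p = 6.19e-13) and by 0.90 (adjusted p = 3.21e-09) in the same order, on all of its 4 probe sets. GALNT2 fell by 1.71 (adjusted p = 4.45e-10) and 1.11 (adjusted p = 5.55e-07), on 3 of its 4 probe sets. GALNT7, another GalNAc-transferase, fell by 0.91 with the match polyamide and by 0.38 with the mismatch polyamide, where the call was lost in 3 of 26 alternatives. GALNT14 fell by 0.61 with the mismatch polyamide, where it did not pass with the signals as deposited (-0.44). With the match polyamide GALNT14 also fell, with values from -0.76 to -0.45 over 26 alternatives, none of which lost the call. GCNT3, a branching enzyme of mucin chains and the one gene of the list that rose with the match polyamide, is named after its values were seen (log2 difference 0.72, adjusted p = 1.58e-05). GCNT3 also rose with the mismatch polyamide, by 0.42 to 0.78 over 26 alternatives. So did the GalNAc-transferases GALNT12 (0.48 to 0.78) and GALNT6 (0.31 to 0.75), with the call on GALNT6 lost in 3 of 26. With the match polyamide GALNT12 fell by 0.54, which did not pass with the signals as deposited or with spike-in scaling.

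Between match and mismatch, 6 genes of the O-glycosylation list were lower and none higher, beside 13.5% and 9.43% of all genes. The difference of GALNT12 was -1.19 (adjusted p = 6.69e-07), with 56.8 on average in match cells and 150 in mismatch cells, and with scaling to the spike-in controls it was the one gene of the list that passed. Dexamethasone raised 2 genes of the list and lowered none, beside 3.2% and 3.6% of all genes. ST3GAL1, a sialyltransferase that caps the core chain, had signals of 189, 164 and 180 with dexamethasone and 35.1, 39.9 and 33.1 in non-treated cells, a rise of 1.90 on the log2 scale (adjusted p = 1.19e-08). With mifepristone ST3GAL1 had 60.1, 44.9 and 42.7 and fell by 1.58 against dexamethasone alone (adjusted p = 2.62e-07), while with the match polyamide, at 117, 153 and 186, it did not pass. GALNT18 likewise rose by 0.66 with dexamethasone and fell by 0.64 with mifepristone, but on only 1 of its 2 probe sets, and the value for mifepristone did not pass without dexamethasone array 3 (-0.56), with the signals as deposited (-0.22), with median centring (-0.48) or with spike-in scaling (-0.15). The value of GALNT18 for dexamethasone did not pass with the signals as deposited (0.67) or with spike-in scaling (0.59), which left ST3GAL1 alone.

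**Figure D4:**
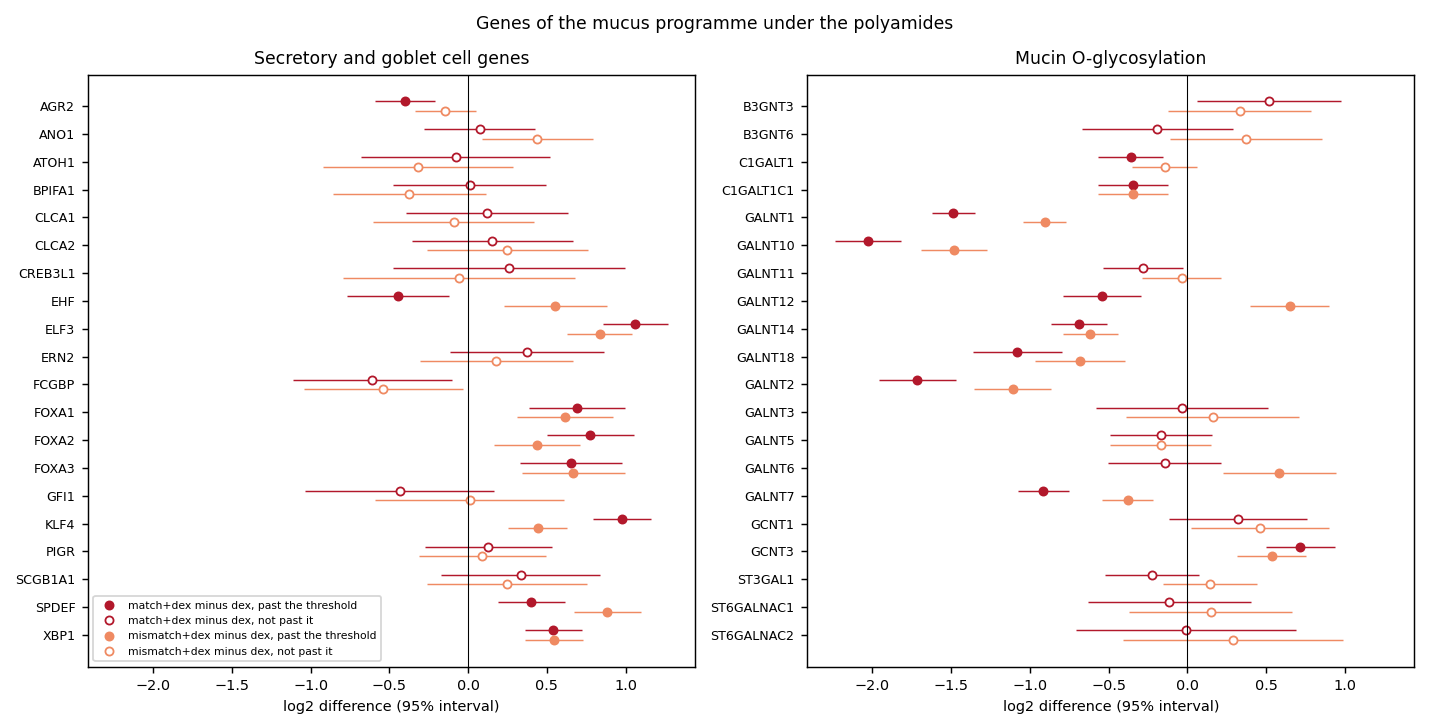
Log2 difference, with its 95% interval as a bar, of the tested genes of the secretory and goblet cell list and the mucin O-glycosylation list for match polyamide plus dexamethasone and mismatch polyamide plus dexamethasone, each against dexamethasone alone, drawn filled where the adjusted p was under 0.05. GALNT10, GALNT2 and GALNT1 lie farthest to the left, at -2.03, -1.71 and -1.49 with the match polyamide.

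Transcription factors and products of secretory and goblet cells were followed in a list of 28 genes, of which 20 were tested. With the match polyamide 7 rose and 2 fell against dexamethasone alone, with a list median of 0.21, and with the mismatch polyamide 8 rose and none fell, with a median of 0.25, beside 0.05 and 0.07 over all genes. Of all genes 21.5% were higher and 17.4% lower with the match polyamide, and 17.9% and 11.8% with the mismatch polyamide. With the signals as deposited 6 rose and none fell with the match polyamide. ELF3, an epithelial ETS factor, had signals of 855, 769 and 813 with the mismatch polyamide and 484, 377 and 492 with dexamethasone alone. ELF3 rose by 0.83 with the mismatch polyamide (adjusted p = 2.39e-06), on all of its 3 probe sets, and by 1.06 with the match polyamide (adjusted p = 3.72e-08), on 1 of the 3. SPDEF, a factor of goblet cell differentiation, rose by 0.88 with the mismatch polyamide (adjusted p = 1.97e-06). With the match polyamide SPDEF rose by 0.40, a call lost in 2 of 26 alternatives. XBP1, a factor of the secretory pathway's stress response, rose by 0.54 with either polyamide, on 1 of its 2 probe sets. FOXA2, a forkhead factor known to hold back mucus production in airways, rose by 0.78 with the match polyamide (adjusted p = 9.15e-05). With the mismatch polyamide FOXA2 also rose, by 0.32 to 0.57 over 26 alternatives, 4 of which lost the call.

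Dexamethasone raised 2 genes of the secretory list and lowered 4 against non-treated cells, beside 3.2% higher and 3.6% lower of all genes, and mifepristone raised 4 and lowered 1 against dexamethasone alone, beside 2.53% higher and 2.76% lower of all genes for mifepristone. KLF4, a factor of goblet cell maturation in the colon, had signals of 613, 518 and 560 with dexamethasone and 213, 231 and 258 in non-treated cells, a rise of 1.22 (adjusted p = 7.12e-09). With mifepristone KLF4 had 225, 234 and 231 and fell by 1.23 (adjusted p = 1.05e-08). FOXA2 fell by 0.90 with dexamethasone (adjusted p = 0.000103) and rose by 0.91 with mifepristone (adjusted p = 0.000147). FOXA1 and ELF3 fell by 0.69 and 0.70 with dexamethasone and rose by 0.94 and 0.51 with mifepristone. The fall of FOXA1 with dexamethasone did not pass with the signals as deposited (-0.66) or with spike-in scaling (-0.72), and under either setting 1 gene of the list rose and 2 fell with dexamethasone. With the match polyamide KLF4 rose by 0.98 above dexamethasone alone (adjusted p = 2.75e-08). With the mismatch polyamide KLF4 also rose, by 0.38 to 0.65 over 26 alternatives. Between match and mismatch KLF4 was higher with match by 0.54 (adjusted p = 0.000209). EHF, another epithelial ETS factor, was lower by 1.00 (adjusted p = 0.000127) and SPDEF was lower by 0.48 (adjusted p = 0.00213). KLF4 did not pass there with the signals as deposited (0.36), nor SPDEF with spike-in scaling (-0.34). Only 1 of the 6 probe sets of EHF passed there. Against dexamethasone alone EHF was higher with the mismatch polyamide, by 0.43 to 0.69 over 26 alternatives, 2 of which lost the call. With the match polyamide EHF was lower, with values from -0.54 to -0.25, and 9 of 26 alternatives lost the call.

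The genes with profiles most like those of TFF1 and MUC1 over the 5 group means were found by the root mean square difference of centred log2 profiles among 16357 other genes. For TFF1 they were ISG15 (0.27), PIERCE2 (0.30), CD55 (0.35), CSTA (0.36) and the member GKN2 (0.36). ISG15, an interferon-induced protein, had signals of 346, 416 and 389 with the match polyamide, 201, 193 and 158 with the mismatch polyamide, 88.2, 77.4 and 47.7 with mifepristone, 54.0, 51.3 and 50.2 with dexamethasone alone and 65.4, 47.1 and 61.0 in non-treated cells. The order of the groups was that of TFF1, but ISG15 was picked by its likeness to TFF1, so this is no separate result. For MUC1 the nearest were ARHGEF26 (0.12), SLC22A5, EMP2 and MTSS2 (0.16 each) and ARHGEF37 (0.17). EMP2, an epithelial membrane protein, averaged 628 with the match polyamide and 1006 with dexamethasone alone, and its log2 differences were -0.67 for the match polyamide and 0.40 for the mismatch polyamide against dexamethasone alone. Likeness was measured over 5 group means only and is a description.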

How the data were processed

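Biotin-labelled RNA of A549 cells was measured on 15 Affymetrix arrays, in 5 groups of 3 taken from the sample titles. The authors deposited 1 linear intensity signal per probe set and array, computed with MAS5 per the submitters' processing notes. Its version and scaling target were not given in the sources used here. Probe sets were named from the platform annotation, which gave 1 symbol to 41097 of 54675, several to 1801 and none to 11777.

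Quantile normalization was applied across the 15 arrays, followed by log2(signal + 16). Probe sets that exceeded the 40th percentile of the array on at least 3 arrays were tested, 39744 (72.7%), without the 62 control probe sets. limma 3.58.1 in R 4.3.3 fitted 1 coefficient per group over all 15 arrays with a variance trend (10 residual and 9.36 prior degrees of freedom), and p-values were adjusted by Benjamini and Hochberg over all tested probe sets (threshold 0.05). The fit was tested on simulated data. Arrays per group, 3, limit the precision. A gene was represented by 1 probe set, those not ending in _x_at first, then the highest mean. Named genes were all members, the 5 nearest profiles of TFF1 and MUC1, and up to 4 genes per context list with the smallest adjusted p. Members and lists were chosen with earlier results of these data known. Deviations from group means of arrays with the same number correlated between -0.0836 and 0.116, so the numbers were not taken as pairs. Alternatives were the scaling, the pseudocount, the filter, the variance trend, a fit on the compared arrays alone, a replicate block and leaving out each array.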

Additional observations from a re-analysis of the deposited data

How the results depend on the processing

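No member or context gene reversed its direction where it had passed. Over 1155 differences of member genes under the alternatives, 1128 kept their side of the threshold, 18 lost the call and 9 gained it. The count of member probe sets called was 1 between mifepristone and dexamethasone, 0 with median centring, a pseudocount of 4, no filter or no variance trend and 4, all higher, with scaling to the spike-in controls. Leaving out 1 array gave 0 to 1 there, 1 between dexamethasone and non-treated cells, 6 to 8 for the match polyamide, 2 to 4 for the mismatch polyamide and 5 to 6 between match and mismatch. With spike-in scaling TFF1 (0.61), MUC5B (0.72) and MUC13 (0.60) passed as higher with mifepristone than with dexamethasone, and TFF1 also with the signals as deposited (0.56). Between those groups the median log2 difference of all probe sets was 0.40 with spike-in scaling and 0.35 with the signals as deposited, against 0.01 with quantile normalization. With spike-in scaling it was 0.24 for the match polyamide, against 0.03, and 0.16 between match and mismatch, against 0.01, and with the signals as deposited it was 0.14 for the mismatch polyamide, against 0.02. Over all probe sets the 1411 called between mifepristone and dexamethasone became 8142 with the signals as deposited (7910 higher) and 12838 with spike-in scaling (12616 higher). The 12252 calls for the match polyamide became 7978 with the signals as deposited, the 9109 for the mismatch polyamide 4624 with spike-in scaling, the 6697 between match and mismatch 3094 and 2847, and the 1927 between dexamethasone and non-treated cells 814 and 767. The split of calls depends on the scaling in all 5 comparisons. Between match and mismatch it was 2969 higher and 3728 lower, against 556 and 2538 with the signals as deposited, 1180 and 4714 with median centring and 2135 and 712 with spike-in scaling, where the larger side turned. For the match polyamide it was 6312 higher and 5940 lower, against 4202 and 5959 with median centring and 8217 and 2668 with spike-in scaling. For the mismatch polyamide it was 4783 and 4326, against 4474 and 1763 with the signals as deposited. For mifepristone it was 639 and 772, against 1172 and 436 with median centring. For dexamethasone it was 1017 and 910, against 564 and 250 with the signals as deposited. A fit with the replicate number as a block gave 1922, 1433, 12239, 9110 and 6712 calls against 1927, 1411, 12252, 9109 and 6697, and changed no call on a member. On the context lists, 2 O-glycosylation and 5 secretory genes were called for mifepristone, against 7 and 8 with the signals as deposited and 10 and 9 with spike-in scaling. The same alternatives were applied to the context lists after seeing the data. The cause of these changes was not tested.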

Other observations

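Genes of stomach and endoderm were followed beside the gastric members. As with the lists above, the adjusted p-values of this list and the next are descriptions. Of 24 genes 19 had a probe set and 16 were tested, and 2 rose and none fell with the match polyamide against dexamethasone alone, with a median of 0.25 beside 0.05 over all genes. Of all genes 21.5% were higher and 17.4% lower there, and the count of the list was 4 with spike-in scaling and 1 without match array 2. GAST, the gene of the hormone gastrin, had signals of 81.3, 76.1 and 102 with the match polyamide, 55.3, 55.4 and 63.7 with the mismatch polyamide and 32.8, 33.9 and 12.5 with dexamethasone alone. GAST rose by 1.31 on the log2 scale with the match polyamide (adjusted p = 0.000257) and by 0.85 with the mismatch polyamide (adjusted p = 0.0147), and the second value was 0.59 without dexamethasone array 3 and 0.80 without mismatch array 3 and did not pass. VSIG1, a junction protein of the stomach, rose by 0.63 with the match polyamide (adjusted p = 0.0113). Without match array 2 the value was 0.47 and did not pass, and a stricter filter left VSIG1 out. SOX2, a factor of foregut and stem cells, had 18.3, 29.7 and 26.8 with dexamethasone and 52.1, 79.8 and 77.2 in non-treated cells, a log2 difference of -1.06 (adjusted p = 0.000591). SOX2 rose by 0.84 with mifepristone (adjusted p = 0.00752), not passing without dexamethasone array 1 (0.72) or mifepristone array 2 (0.76), and 1 of its 3 probe sets passed in either comparison.

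Reported partners of trefoil peptides were all tested, 6 genes. EGFR, the receptor of epidermal growth factor, had signals of 437, 261 and 232 with the match polyamide, 136, 132 and 202 with the mismatch polyamide and 963, 938 and 569 with dexamethasone alone. EGFR fell by 1.38 with the match polyamide (adjusted p = 3.1e-05) and by 2.27 with the mismatch polyamide (adjusted p = 1.21e-07), on 5 of its 8 probe sets in each. CXCR4, a chemokine receptor, had 22.1, 37.3 and 23.1 with the match polyamide and 3.79, 4.79 and 4.18 with dexamethasone alone. This was a rise of 1.09 (adjusted p = 0.000431) on 1 of its 2 probe sets. A stricter filter left CXCR4 out, so it may have passed the filter only through arrays where it was high. ACKR3, a scavenging chemokine receptor, fell by 1.02 with the match polyamide (adjusted p = 0.00109). With the mismatch polyamide ACKR3 also fell, with values from -1.26 to -0.29 over 26 alternatives, 5 of which lost the call. CXCR4 also rose there, by 0.23 to 1.23 over 25 alternatives, 9 of which lost the call. EGFR and the partner DMBT1 were higher with match than with mismatch, by 0.63 to 1.07 and 0.41 to 1.31 over 26 alternatives. Against dexamethasone alone DMBT1 was lower with the mismatch polyamide, with values from -1.05 to -0.30, and 4 of 26 alternatives lost the call. With the match polyamide DMBT1 did not pass against dexamethasone alone.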
